A study of Mus musculus with 16 samples.

Results

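The contractile and mural genes of hepatic stellate cells (HSCs) were examined as a set of 10 genes, chosen by symbol from the 47729 genes of the deposited count tables: Acta2, Tagln, Myh11, Cnn1, Myl9, Mylk, Tpm2, Des, Rgs5 and Cspg4. Their levels were compared between HSCs, endothelial cells (ECs), Kupffer cells (KC) and hepatocytes (HC) of mouse liver, and between the genotype labels within each cell type. The 16 RNA-seq libraries came from unchallenged livers of adult mice, and each cell type and genotype label had 2 of them. The animals labelled KO carried the tamoxifen-inducible Cdh5-CreERT2 driver, which acts in vascular endothelium, Zeb2 with a loxP-flanked exon 7 and an R26R CAG-boosted eGFP reporter. The animals labelled WT were littermates without Cre, and all received 2 mg of tamoxifen per day on 5 consecutive days. The methods give males 8 weeks of age, unless indicated otherwise, and mRNA measurements 2 weeks after tamoxifen. By this design Zeb2 is a target of Cre in ECs alone, and the other 3 cell types come from the same kind of livers. HSCs were sorted by their ultraviolet autofluorescence, Kupffer cells by F4/80 and ECs by Meca32 among cells without that autofluorescence, and hepatocytes were taken by centrifugation. The labels do not say which libraries share a liver, and the 2 libraries of a group may therefore differ by animal or by handling.

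HSCs lie around the liver sinusoid, store retinoid as lipid droplets when quiescent, and turn into contractile, matrix-producing myofibroblasts after injury. Smooth muscle contraction starts when myosin light chain kinase phosphorylates the regulatory light chain of myosin, which then slides along actin filaments held by tropomyosin, calponin and transgelin. Desmin is the intermediate filament of muscle and of rodent HSCs, Rgs5 is a GTPase activator that dampens G protein signals in pericytes, and Cspg4 encodes the NG2 proteoglycan of pericytes. Acta2 is the usual marker of HSC activation, while Des, Rgs5 and Mylk are also transcribed in quiescent HSCs.

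Between 12872706 and 15690506 reads per library fell on genes, with a median of 14806833. Levels are given as counts scaled to the library total (CPM), on which scale a floor of 3 counts lies at 0.191 to 0.233. This floor covers counting error only. Zeb2 itself stood between 105.7 and 106.5 CPM in the 2 EC libraries labelled WT and between 130.1 and 199 CPM in the 2 labelled KO. The whole-gene count thus did not follow the label, and since it also holds reads outside exon 7 it does not check the deletion. Groups are therefore called by their labels throughout. The paper itself reports efficient deletion in ECs, both at the mRNA level and by the share of ECs affected. The sorted types carried their own markers, since 12 of 12 stellate cell genes were higher in HSCs than in ECs and 10 of 10 endothelial genes were lower. RNA of hepatocytes moved with the label. The median level of 857 hepatocyte-enriched genes, as a percentage of that in WT hepatocytes, was 3.91 and 7.94 in the HSC libraries labelled WT against 0.915 and 1.39 in those labelled KO, and 11.1 and 22.9 against 3.34 and 2.28 in ECs. In these bulk libraries fewer cells of a type and less RNA per cell cannot be told apart.

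All 10 genes were detected in every HSC library, although Cnn1 stood at 2 counts, below the floor, in one of them. Per kilobase of merged exons, Rgs5 had the highest mean level over the 4 HSC libraries at 959.6 CPM per kb, and Myl9, the regulatory light chain of smooth muscle myosin, followed with 319. Des had 154, Mylk, the light chain kinase, 73.5, and Tagln, the actin-binding protein transgelin, 53.2 CPM per kb. Acta2, smooth muscle actin, had 30.8, Tpm2, beta-tropomyosin, 28.6, and Myh11, the smooth muscle myosin heavy chain, 6.31 CPM per kb. Cnn1, calponin, and Cspg4 were lowest at 0.387 and 0.141 CPM per kb. The mean level of the kinase and of the light chain thus exceeded that of the smooth muscle actin and heavy chain on this scale. Acta2 varied by library, with 11.6 and 14.2 CPM per kb in WT libraries 32 and 40 and 24.9 and 72.7 in KO libraries 8 and 20. Mylk had 75.7 and 72.4 in those KO libraries, so the kinase did not exceed the actin in KO library 20. Among the ubiquitous paralogs, Actb at 2689 CPM per kb far exceeded Acta2, Tpm4 at 178 exceeded Tpm2 and Myh9 at 17.0 exceeded Myh11. Myl12a, at 103 CPM per kb, lay below Myl9.

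**Figure D1:**
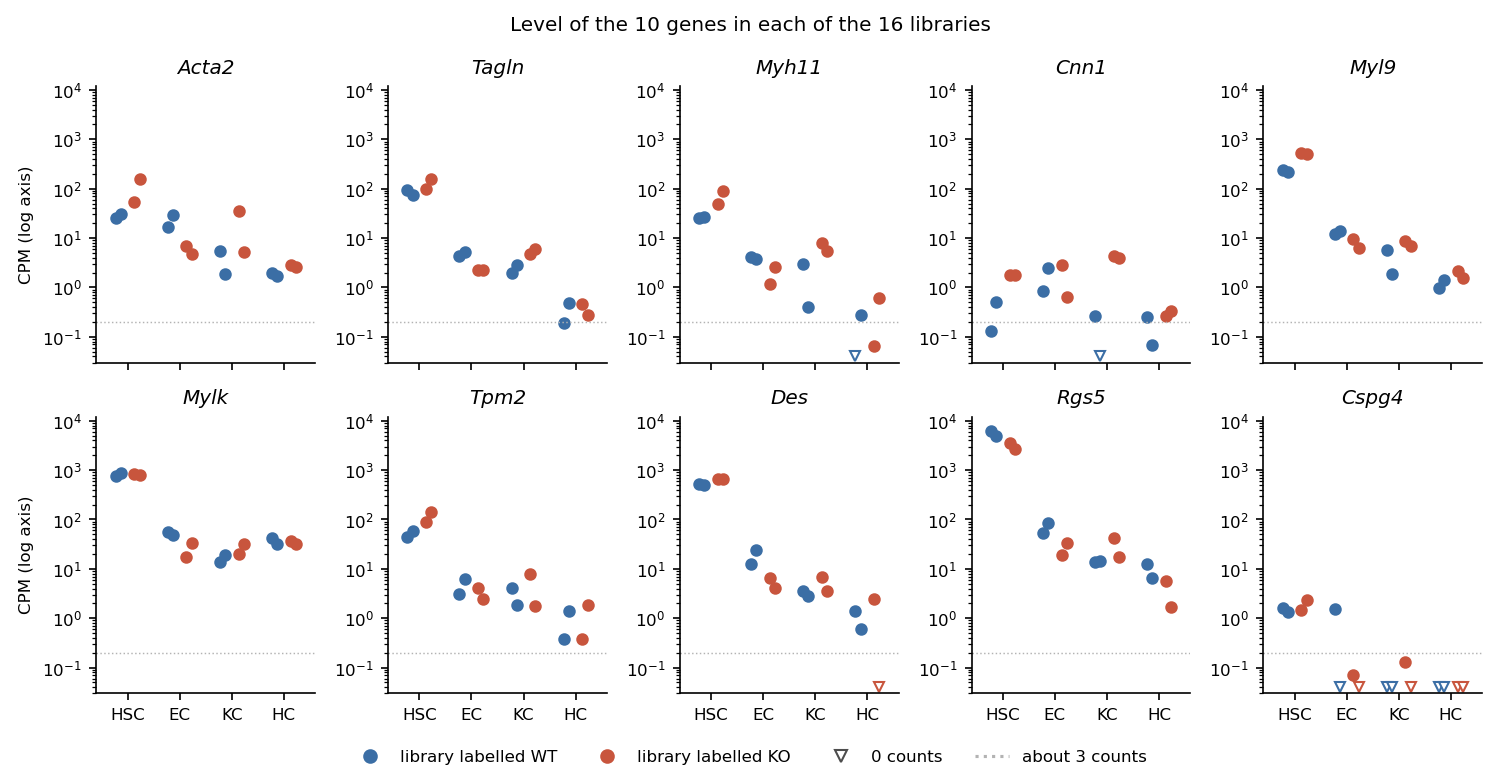
Level of each of the 10 genes in CPM (log axis) in the 16 libraries, by cell type and genotype label; each point is 1 library, open triangles mark 0 counts and the dotted line marks about 3 counts. Of the 10 genes, 9 have their highest mean in HSCs, with Rgs5 between 2689.7 and 6257 CPM there, while Cnn1 is low in all 4 cell types. Cspg4, although highest in HSCs, lies at no more than 2.35 CPM.

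Little of the sequence is shared with these paralogs. Of the 50-base stretches of the annotated transcripts, 0.326% in Acta2 were also found in other genes such as Actg1, 0.340% in Myh11 were found in Myh9 and Myh10, and none in Myl9, Tpm2, Cnn1, Rgs5 or Cspg4. The exception was Tagln at chr9:45929619-45936058 (minus strand, GRCm38), where 62.4% of exon bases overlap Gm48529 on the opposite strand. For Des at chr1:75360329-75368579 the largest such overlap, with Gm15179, was 5.86%. For Mylk at chr16:34745210-35002420 it was 4.87%, with E130310I04Rik. Of these partners only Gm15179 is among the counted genes. Tagln also overlaps Pcsk7, a counted gene on the opposite strand, by 108 bases. The strand setting of the counting is not given in the sources used here, so reads of these genes and their antisense partners cannot be told apart. Acta2 (chr19:34241090-34255590), Myl9 (chr2:156775420-156781658) and Rgs5 (chr1:169655501-169695813) have no overlapping exon of another gene.

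Serum response factor binds the CArG box in smooth muscle genes. Its exact form is CC, 6 bases that are each A or T (the core), and GG, read on both strands. The promoters of Acta2 and Myl9 are shown because these 2 of the windows at hand hold such a box with at most 1 C or G in the core. Only that of Myl9 holds an exact one. In RefSeq windows of 250 bases before to 50 bases after the transcription start (GRCm38.p6), available for 8 of the 10 genes and not for Tagln and Myh11, Myl9 held 1 exact CArG box at position -161 and a second at -99 with 1 C or G in its core. Acta2 held boxes with 1 C or G in the core at -84 and -34. The sequences run 5′ to 3′ on the strand of the gene, with the boxes in capitals.
Acta2, chr19:34255383-34255472, minus strand: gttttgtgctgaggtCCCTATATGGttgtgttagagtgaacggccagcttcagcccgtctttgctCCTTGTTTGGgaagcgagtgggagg
Myl9, chr2:156775288-156775389, plus strand: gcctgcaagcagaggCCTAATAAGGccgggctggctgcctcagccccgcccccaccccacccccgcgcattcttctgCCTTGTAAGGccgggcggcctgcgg
Of all 32851 windows, 1.63% held an exact CArG box, 9.98% at least 1 box with at most 1 C or G in the core and 0.822% held 2 or more of these. No such box was in the windows of Cnn1, Mylk, Tpm2, Des, Rgs5 and Cspg4. A match describes these letters and not a bound site.

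The 10 genes were next compared between cell types, to see how far they set HSCs apart in the same livers. Compared with ECs, 8 of 10 were higher in HSCs by edgeR's quasi-likelihood test with a Benjamini-Hochberg adjusted p under 0.05, against 12.8% of the 17214 genes tested. Compared with Kupffer cells and with hepatocytes 9 of 10 were higher, against 22.3% and 34% of all genes. The 8 genes Acta2, Tagln, Myh11, Myl9, Mylk, Tpm2, Des and Rgs5 were higher in HSCs than in each of the other 3 types, as were 6.66% of all genes. Libraries of different types may share a liver and were treated as independent.

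Rgs5 was the gene with the widest gap to each of the other types among these 8. Its 4 HSC libraries had 6257, 4938, 3565 and 2689.7 CPM, and its mean was 47.4 ± 27.8 CPM in ECs, 22.1 ± 13.9 in Kupffer cells and 6.65 ± 4.52 in hepatocytes (SD, n = 4). No library of another type came near the HSC range. On the log2 scale the difference from ECs was 6.86 (SE 0.48, adjusted p 1.01e-06), and that from Kupffer cells was 7.59 (SE 0.50).

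Des had 513 and 490.2 CPM in the HSC libraries labelled WT and 648 and 669 in those labelled KO. Its mean was 12.0 ± 9.20 CPM in ECs and 4.20 ± 1.80 in Kupffer cells, differences of 6.11 (SE 0.67) and 7.06 (SE 0.70) on the log2 scale. No library of another type came near the HSC range of this filament gene either. Mylk, with 756, 889, 853 and 816 CPM, had the tightest HSC values of the set, with a coefficient of variation of 6.88%. Its difference from ECs was 4.73 (SE 0.28) and from Kupffer cells 5.27 (SE 0.28).

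Myl9 was higher in HSCs than in ECs by 5.32 on the log2 scale (SE 0.36), with HSC libraries between 219 and 525 CPM and EC libraries between 6.26 and 13.8. Tagln differed by 5.23 (SE 0.30), Tpm2 by 4.56 (SE 0.64) and Myh11 by 4.21 (SE 0.72). None of these 4 genes had an EC or Kupffer cell library within the range of the HSC libraries. In all, every HSC library lay above every EC library in 7 of 10 genes (12.1% of all genes) and above every Kupffer cell library in 8 (23%). The order below HSCs was resolved in part. Between ECs and Kupffer cells none of the 10 genes passed the test (32% of all genes did), and ECs exceeded hepatocytes in Tagln, Myh11, Myl9, Des and Rgs5 (33.2% of all genes). Kupffer cells exceeded hepatocytes in Tagln and Myh11 (29.3% of all genes) and lay below them in Mylk.

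Acta2, the actin of contractile cells, had the smallest difference among the 8 from ECs and from Kupffer cells. It had 25.5 and 31.1 CPM in the HSC libraries labelled WT and 54.7 and 159.5 in those labelled KO, beside 16.7 and 29.4 in the EC libraries labelled WT. One WT EC library was thus within the range of the WT HSC libraries. The difference between HSCs and ECs was 2.52 on the log2 scale (SE 0.57, adjusted p 0.00636), and in the WT groups alone it was 0.56 with an adjusted p of 0.689 by the same test. Myh11 also lost its call against ECs in the WT groups alone, with 2.99 and an adjusted p of 0.0652.

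Cnn1 was the exception to the HSC pattern. Its mean was 2.14 CPM in Kupffer cells, 1.70 in ECs, 1.06 in HSCs and 0.229 in hepatocytes, and no neighbours in this order differed by the test. Cspg4 had 1.60 and 1.34 CPM in HSC libraries labelled WT and 1.45 and 2.35 in those labelled KO, that is 21 to 34 counts. It was at 0 counts in all 4 hepatocyte libraries and at no more than 2 counts in Kupffer cells. Against the floor of 3 counts per library its HSC level was at least 8.53-fold higher than in hepatocytes and at least 8.46-fold higher than in Kupffer cells. The difference from ECs was not past the threshold (adjusted p 0.110), with 1.54 CPM in 1 EC library and at most 0.0696 in the other 3.

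Mylk was the member with a clear level in hepatocytes, with 42.4, 32.0, 36.8 and 32.2 CPM. In CPM this was close to the EC mean of 39.0, whereas the TMM-scaled fit put ECs below hepatocytes by 1.32 on the log2 scale (SE 0.24, adjusted p 0.000547), so their order depends on the scaling. Both lay far below HSCs.

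Lists of related genes were read beside the members. Of 20 further smooth muscle genes 13 were higher in HSCs than in ECs and none lower, with a median log2 difference of 1.86 beside -0.02 over all genes, led by the intermediate filament gene Synm at 5.21. Of 14 pericyte genes tested 10 were higher and none lower, with a median of 5.98, led by the endothelin receptor gene Ednra at 7.24. Ubiquitous paralogs were mixed, with 8 of 16 higher and 2 lower. Among the striated muscle paralogs the actin Acta1 had a mean of 0.0679 CPM in HSCs, below the floor, and Actc1 and the light chain Myl7 were at 0 counts in all 4 HSC libraries.

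The next comparison asked whether these HSC genes differed with the KO label, that is, in livers labelled as carrying the endothelial Cre. By edgeR none of the 14390 genes tested in HSCs was past the threshold (0%), and none of the 10 genes was. Unadjusted p-values under 0.05 were found for 1259 genes, and DESeq2 called 406. At unadjusted p under 0.05, 4 of the 10 genes were higher with the KO label (Acta2, Myh11, Myl9 and Tpm2, against 1.75% of all genes) and 1 was lower (Rgs5, against 7%). In 7 of 10 both KO libraries lay above both WT libraries, as in 20.5% of all genes, and in 1, Rgs5, they lay below, as in 19.3%. DESeq2, an alternative test, called Acta2, Myh11 and Myl9 higher (0.111% of all genes) and Rgs5 lower (2.71%).

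Myl9, the light chain, had 238 and 219 CPM in the WT libraries 32 and 40 and 525 and 499 in the KO libraries 8 and 20. The groups did not overlap and the libraries within each were close. Its mean was 2.24-fold higher with the KO label, 512 ± 18.5 against 229 ± 13.7 CPM (SD, n = 2), with a log2 fold change of 1.14 (SE 0.20, unadjusted p 0.00174, edgeR adjusted p 0.309). The value stayed between 1.06 and 1.22 whichever library was dropped.

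Acta2 had 25.5 and 31.1 CPM with the WT label and 54.7 and 159.5 with the KO label. KO library 20 stood apart from the other 3. The log2 fold change was 1.93 (SE 0.55, edgeR adjusted p 0.427), and without KO library 20 it was 0.86. Myh11 had 25.0 and 26.7 CPM against 49.9 and 90.0, and its log2 fold change of 1.44 (SE 0.36, edgeR adjusted p 0.381) was 0.86 without that library. The heavy chain and the actin thus shared their highest library.

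Tpm2 had 43.9 and 58.4 CPM with the WT label and 90.1 and 140.0 with the KO label, and its log2 fold change was 1.17 (SE 0.32, edgeR adjusted p 0.418). Tagln had 92.3 and 73.3 against 99.5 and 158 CPM, and its fold change of 0.63 was under 2 SE of 0.32. Cnn1 rested on 2 and 8 counts against 26 and 26, with a log2 fold change of 2.45 and an SE of 1.10. In these 3 genes the groups did not overlap, but the gap between them was small beside the spread in Tagln and the counts were few in Cnn1. Mylk overlapped between the labels, with WT libraries at 756 and 889 CPM on either side of the KO libraries at 853 and 816 and a log2 fold change of 0.00 (SE 0.21).

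**Figure D2:**
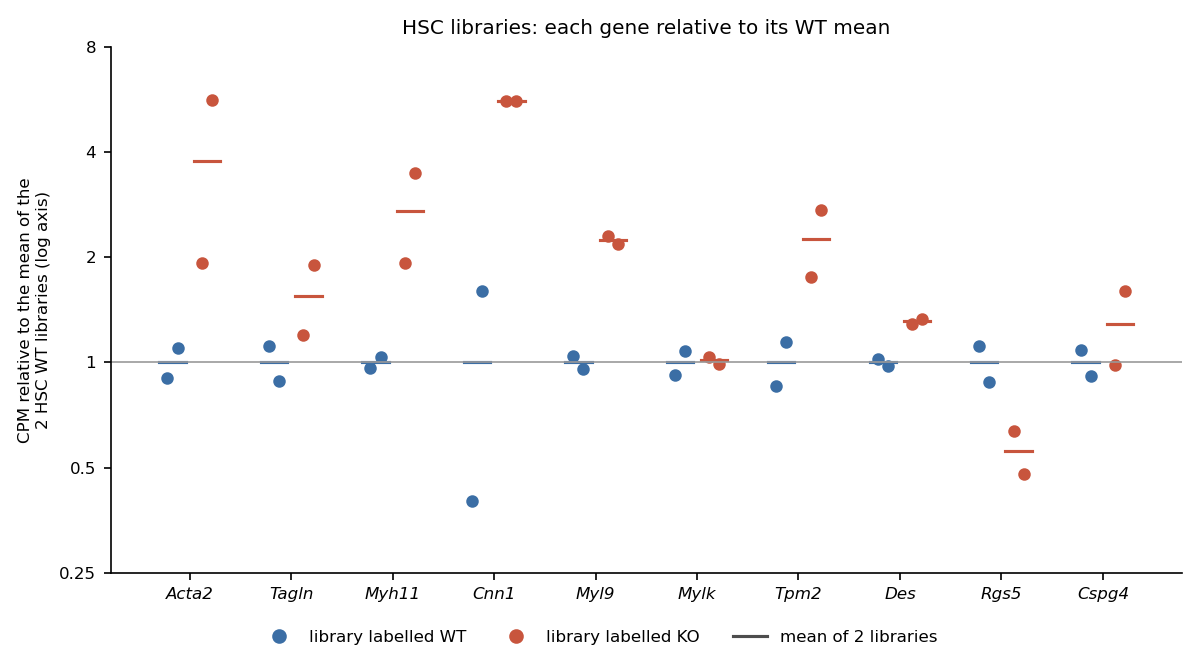
CPM of each gene in the 4 HSC libraries relative to the mean of the 2 libraries labelled WT (log axis); points are libraries and short lines are means of 2. Acta2, Tagln, Myh11, Cnn1, Myl9, Tpm2 and Des have both KO points above both WT points, Rgs5 has both below, and Mylk and Cspg4 overlap.

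The summed level of the 7 genes for actin, myosin and their regulators was 1181 and 1298 CPM with the WT label and 1674 and 1864 CPM with the KO label. Their median log2 fold change was 1.17 beside 0.02 over all genes tested. Most of the sum was Mylk and Myl9, of which Mylk had about the same mean under both labels, 822 and 834 CPM.

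Rgs5 went the other way, with 6257 and 4938 CPM in WT libraries 32 and 40 and 3565 and 2689.7 in KO libraries 8 and 20. No KO library reached a WT library. Its WT mean was 1.79-fold higher than its KO mean, and the log2 fold change was -0.87 (SE 0.26, unadjusted p 0.0169, edgeR adjusted p 0.436, DESeq2 adjusted p 0.0489). Leaving out each library gave values between -1.05 and -0.68. Des, the other mural gene with a high level, differed by 0.38 (SE 0.21) and Cspg4 by 0.36 (SE 0.83).

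Within a library the ratio of Rgs5 to Acta2 was 246 and 159 with the WT label and 65.2 and 16.9 with the KO label. The ratio of Rgs5 to Des was 12.2 and 10.1 against 5.50 and 4.02. Such ratios do not depend on how libraries are scaled. In both the groups did not overlap, which follows from the opposite order of these genes given above and is no separate result.

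Markers of other cells were set beside these differences. In HSCs, 10 of 10 hepatocyte markers were lower with the KO label at unadjusted p under 0.05, and their summed level was 3160.4 and 7731 CPM against 567 and 1504. Without the hepatocyte-enriched genes the log2 fold change of Acta2 was 1.89, of Myl9 1.10 and of Rgs5 -0.91. The 10 Kupffer cell markers summed to 2478 and 531 CPM with the WT label and 568 and 2725 CPM with the KO label, so that the KO library with the most Acta2 also held the most Kupffer cell RNA, while WT library 32 held nearly as much with the least Acta2. Portal fibroblast and mesothelial genes, markers of other Acta2-expressing or neighbouring mesenchyme, summed to 416 and 177 against 300.4 and 185 CPM. Whether such cells had a part in the differences was not tested. Endothelial markers summed to 759 and 437 against 329 and 372 CPM.

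Further genes of contraction were counted in the same way. Of 20 smooth muscle genes, 18 were tested in HSCs and none was called, 9 had a higher value with the KO label, and the median log2 fold change was 0.02. Of 16 ubiquitous paralogs 13 had a higher value, with a median of 0.18. The 12 genes of stellate cell quiescence had a median of 0.12 and the 12 genes of activation a median of -0.66, with 2 of 12 above 0. Their summed level was 5508 and 4770 CPM in WT and 3890.1 and 2708 CPM in KO libraries, so both KO libraries lay below both WT libraries. Of 14 pericyte genes 5 were above 0, with a median of -0.21. Named after their values were seen, Col3a1, a fibrillar collagen, had 2327 and 1588 against 1186 and 498 CPM, the signalling receptor gene Notch3 of mural cells had 12.5 and 9.53 against 17.8 and 34.2 CPM, and Lmod1, a leiomodin of smooth muscle actin filaments, had 2.31 and 1.86 against 4.08 and 7.40 CPM. None of the 3 was past the threshold.

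In ECs, 305 of 14631 genes were past the threshold (2.08%), nearly all of them lower with the KO label (1.97%). None of the 9 members tested was, and Cspg4 was filtered out. In 7 of the 9 both KO libraries lay below both WT libraries, as in 24.1% of all genes, and 4 were lower at unadjusted p under 0.05 (Acta2, Mylk, Des and Rgs5, against 10.1%). DESeq2 called Acta2, Des and Rgs5 lower, against 5.74% of all genes.

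Acta2 in ECs had 16.7 and 29.4 CPM in WT libraries 34 and 38 and 6.89 and 4.66 in KO libraries 6 and 46. The groups did not overlap, and the WT mean was 3.99-fold higher than the KO mean. The log2 fold change was -1.999 (SE 0.42, edgeR adjusted p 0.0782), and it ranged from -2.31 to -1.57 when each library was left out, with an adjusted p of 0.0269 without WT library 34. A minimum of 10 counts in every library gave an adjusted p of 0.0447.

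Des in ECs had 12.8 and 24.6 against 6.48 and 4.03 CPM, a log2 fold change of -1.83 (SE 0.47, edgeR adjusted p 0.136), with an adjusted p of 0.0447 without WT library 34. Rgs5 had 53.2 and 83.5 against 19.2 and 33.6 CPM, with -1.35 (SE 0.38, edgeR adjusted p 0.169). Mylk had 56.4 and 48.6 against 17.4 and 33.9 CPM, with -1.02 (SE 0.38). In these 3 genes too the highest KO library lay below the lowest WT library. Tagln (-1.10), Myh11 (-1.03) and Myl9 (-0.72) had the same order of libraries, while Tpm2 (-0.51) and Cnn1 (0.04) overlapped.

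**Figure D3:**
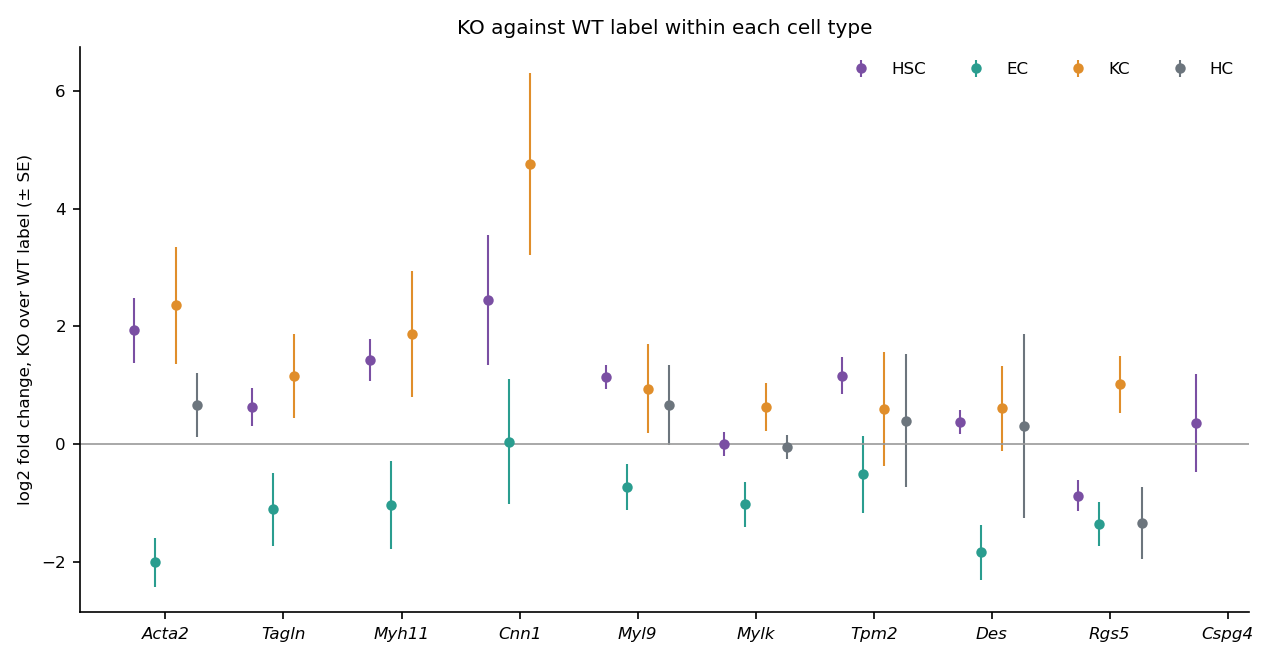
log2 fold change of KO over WT label (± SE, edgeR, 2 against 2 libraries) for each gene in HSCs, ECs, Kupffer cells (KC) and hepatocytes (HC), for genes that passed the filter on low counts. The HSC and EC points of Acta2 lie at 1.93 and -1.999, Rgs5 lies below 0 in HSCs, ECs and hepatocytes, and no point passed the adjusted threshold.

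Apart from Acta2 and Cnn1, these EC levels were at most 8.45% of the mean of the 4 HSC libraries. Other genes of HSCs were lower with the KO label too. Of 11 quiescence genes of HSCs tested in ECs, 6 were lower at unadjusted p under 0.05, with a median of -1.02. Their median level in ECs was 1.58% and 1.83% of the HSC mean with the WT label and 0.595% and 0.842% with the KO label. Des, at 2.20% and 4.25% against 1.12% and 0.695%, and Rgs5, at 1.22% and 1.91% against 0.441% and 0.770%, were at shares of the same order. Acta2 was above this median in each library, with 24.7% and 43.4% against 10.2% and 6.88%. The HSC mean pools both labels, and Acta2 in EC WT library 38, at 29.4 CPM, lay between the 25.5 and 31.1 CPM of the WT HSC libraries. The highest gene of the list stood at 12.0% and 17.0% against 7.02% and 7.74%, so that in KO library 46 Acta2 lay within the range of the list. Of the pericyte genes, Vtn (-2.90, also transcribed in hepatocytes) and Steap4 (-2.35) were lower by the adjusted test, and of the activation genes Col3a1 (-1.95) was. In ECs 10 of 10 hepatocyte markers were lower by the adjusted test, led by Pck1 at -3.98. Without the hepatocyte-enriched genes no gene at all was past the threshold in ECs, and the value of Acta2 was -2.04. The part of HSC or hepatocyte RNA in the EC values was not tested.

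**Figure D4:**
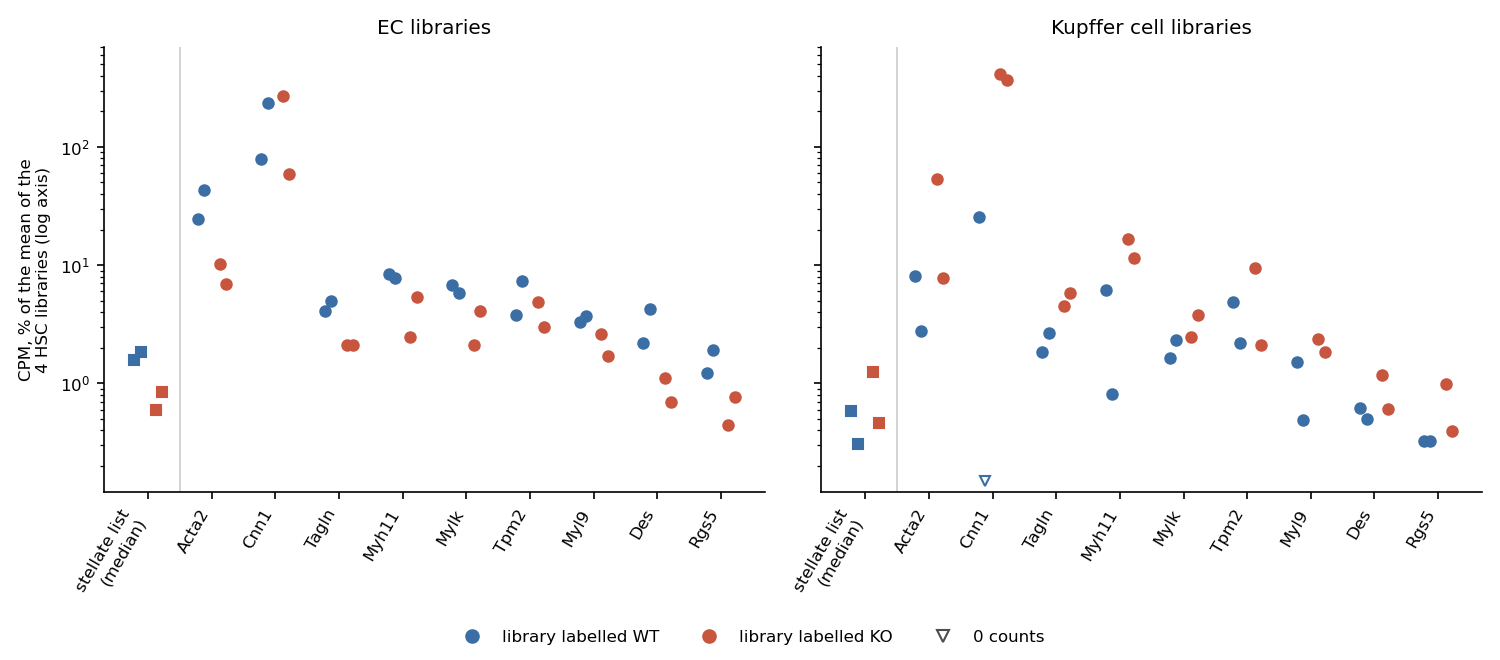
Level of 9 of the genes in EC (left) and Kupffer cell (right) libraries as a percentage of the mean of the 4 HSC libraries (log axis), beside the median of 12 stellate cell quiescence genes (squares); each point is 1 library, coloured by genotype label, and an open triangle marks 0 counts. Des and Rgs5 lie near the squares. Acta2, Tagln, Myh11, Mylk, Tpm2 and Myl9 lie above them in all 8 libraries, and Cnn1 exceeds its HSC mean in 4 of these libraries.

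In Kupffer cells no gene of 13867 was past the threshold by edgeR (0%), with 706 at unadjusted p under 0.05 and 72 called by DESeq2 (0.519%). Markers of hepatocytes and of endothelium were also higher with the KO label. The hepatocyte markers summed to 5710 and 8596 CPM with the WT label and 9583 and 11385 with the KO label (10 of 10 above 0), and the endothelial markers to 742 and 1044 against 1324 and 1079 CPM (9 of 10 above 0). Their part in the values below was not tested. All 9 members tested had a higher value with the KO label, where 48.5% of all genes did, and in 6 the groups did not overlap (20.5% of all genes). DESeq2 called none of the 9. At unadjusted p under 0.05 was Cnn1 alone (3.35% of all genes), with 4 and 0 counts in WT libraries 31 and 39 and 66 and 58 counts in KO libraries 27 and 43, that is 0.268 and 0 against 4.35 and 3.93 CPM. The KO libraries stood well clear of the WT libraries, and the log2 fold change was 4.76 (SE 1.55, edgeR adjusted p 0.933). The WT group lay near the floor, so the fitted fold is not a bound.

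Acta2 in Kupffer cells had 5.43 and 1.89 CPM with the WT label and 36.005 and 5.28 with the KO label. One WT library thus exceeded KO library 43, and the log2 fold change of 2.36 was 0.46 without KO library 27. Tagln had 1.95 and 2.81 against 4.81 and 6.09 CPM, and Myh11 had 2.95 and 0.391 against 7.98 and 5.48. Library 27 also had the highest portal fibroblast and mesothelial sum, 99.0 CPM beside 24.5, 36.3 and 36.5, and the highest stellate list level, 1.25% of the HSC mean beside 0.306% to 0.587%. Whether cells of these kinds had a part in it was not tested. Rgs5 had 14.1 and 14.2 against 42.9 and 17.4 CPM, and Mylk, the remaining gene with a fair level, 13.5 and 19.2 against 20.2 and 31.4 CPM.

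In hepatocytes 6 members passed the filter on low counts and none of 11548 genes was past the threshold (0%), with 821 at unadjusted p under 0.05 and 27 called by DESeq2 (0.234%), none of them a member. Acta2 had 1.91 and 1.70 against 2.90 and 2.63 CPM and Myl9 had 0.956 and 1.43 against 2.13 and 1.55. In these 2 the groups did not overlap, as in 16.4% of all genes, and the log2 fold change was 0.67 for each. Rgs5 had 12.6 and 6.61 against 5.67 and 1.68 CPM, with -1.33 (SE 0.62, edgeR adjusted p 0.708), as one of the 23.2% of genes whose KO libraries lay below both WT libraries. Mylk overlapped between the groups, with -0.04 (SE 0.20). Markers of Kupffer cells, endothelium and stellate cells were lower with the KO label as well. The Kupffer cell markers summed to 473 and 242 CPM against 217 and 162 (0 of 10 above 0), the endothelial markers to 128 and 118 against 97.2 and 78.2 (1 of 10 above 0), and the stellate quiescence genes to 238 and 242 against 224 and 159. Other lists went the other way. The portal fibroblast and mesothelial genes summed to 12.0 and 12.0 against 27.8 and 15.2 CPM, and the cholangiocyte markers to 112 and 116 against 123 and 144. The pericyte genes overlapped, with 6085 and 6112 against 6057 and 6498 CPM. That list holds Vtn, also transcribed in hepatocytes, so its sum in these libraries does not measure pericyte RNA. The part of such cells in the value of Rgs5 was not tested.

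The label difference itself was compared between cell types as an interaction term over the 16 libraries. For none of the 10 genes was it past the adjusted threshold in any pair of types, while 0.0349% of all genes were between HSCs and ECs and 0.593% between HSCs and Kupffer cells. The share was 0.0755% between HSCs and hepatocytes, 2.07% between ECs and Kupffer cells, 0.0697% between ECs and hepatocytes and 0.0116% between Kupffer cells and hepatocytes. Between HSCs and ECs the value for Acta2 was 3.92 on the log2 scale (SE 1.12, unadjusted p 0.00431, edgeR adjusted p 0.678). Myl9 differed by 1.86 (SE 0.62) and Tagln by 1.72 (SE 0.52) in the same direction. The comparison of Rgs5 between HSCs and Kupffer cells gave -1.93 (SE 0.76, edgeR adjusted p 0.348). Opposite signs in HSCs and ECs were thus not shown to be different effects gene by gene.

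As a description, the genes most like each of 3 members over the 16 libraries were ranked by Pearson's r of log2 CPM among the 13825 genes that reached 1 CPM on average. The 16 libraries share cell type, so r mostly reflects the height of HSCs over the other types. Closest to Des were Prss23 (0.993), Rbms3, Adra2b, Rgs5 (0.980) and Adamts2. Closest to Rgs5 were Ednra (0.991), Igfbp3, Ifitm1, Gucy1a3 and Col14a1. Acta2 had looser neighbours, with Gm26580 (0.935), Fhl2 (0.926), Myh11 (0.911), Cpz and Adamts2, while Myl9 ranked 16, Tpm2 17, Tagln 51, Des 70, Rgs5 187 and Mylk 1180 in its list. After the mean of each cell type was removed, Acta2 went with Myl9 (r = 0.82), Myh11 (0.72), Cnn1 (0.70) and Tpm2 (0.68) over the 16 libraries, Myl9 with Myh11 and with Cnn1 (0.78 each) and Des with Rgs5 (0.74). Rgs5 had values near 0 with Myh11 (-0.02) and Myl9 (0.07). These values over all libraries do not describe HSCs alone, where Rgs5 ran opposite to Des and Myl9. In WT libraries 32 and 40 and KO libraries 8 and 20, log2 CPM less the HSC mean was 0.59, 0.25, -0.22 and -0.63 for Rgs5. For Des it was -0.16, -0.23, 0.17 and 0.22, and for Myl9 -0.52, -0.64, 0.62 and 0.55. Some of these values rest on few counts, as for Cnn1 and for most members in hepatocytes.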

How the data were processed

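RNA was sequenced from 16 libraries of 4 mouse liver cell types and 2 genotype labels. The authors deposited 1 table of raw counts per library, with 47729 gene rows. The submitters' processing notes name Trimmomatic 0.32, HISAT2 2.1.0, HTSeq 0.9.1 and the GRCm38 build. The labels and the design text name different library kits, and the strand setting and annotation release are not given in the sources used here. The 5 HTSeq summary lines name no gene and were left out of library sizes. Lines on genes made up 42.5% to 57.5% of all lines, and alignments that were not unique 24.8% to 47.9%, so genes with near-identical copies are undercounted. The annotation of GENCODE release 21 held 99.1% of the gene identifiers and gave positions and lengths.

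CPM were computed here over gene rows. Counts were tested with edgeR 4.0.16 in R 4.3.3 (filterByExpr, TMM scaling, quasi-likelihood F test, Benjamini-Hochberg adjusted p under 0.05), KO against WT label within each cell type over its 4 libraries, and cell types and interactions over all 16 libraries with 8 group means. SE is the log2 fold change over the square root of F. The methods give 2 samples a group, which the study's wording ties to mice, but the labels name no animal for a library, so p-values measure the spread between these samples, which may be technical. Replicates differed by more than sampling noise in every group. DESeq2 1.42.0, other scalings, filters and left-out libraries were alternatives, and those for the interactions were chosen after seeing the data. Hepatocyte-enriched genes had at least 10 CPM in WT hepatocytes and at least 8 times their mean in WT Kupffer cells (857 genes). Scripts were tested on simulated data. The members and lists were chosen with earlier results of these data known. Genes of a list were named where they passed the threshold, at most 3 per list and comparison, and paralogs by their level. Col3a1, Notch3 and Lmod1 in HSCs fall outside this rule and were named after their values were seen. Tables and figures were made with Python 3.11.15, pandas 2.3.3 and matplotlib 3.10.9.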

Additional observations from a re-analysis of the deposited data

Results flagged for a closer look

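In 39 sets of 4 libraries (1 gene in 1 cell type), 4 had a library set apart by a gap above the critical value of Dixon's test. Chance alone flags about 1 in 20 sets of normal values from 1 group. These sets pool both labels and some rest on few counts, so that rate need not apply. In Kupffer cells, KO library 27 was the library set apart for Acta2 (36.005 CPM), Rgs5 (42.9 CPM) and Cspg4 (0.132 CPM, which is 2 counts). In ECs, WT library 34 was it for Cspg4, with 1.54 CPM.

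Some genes had all KO libraries above all WT libraries in one cell type and below them in another. The difference between the log2 fold changes was tested as an interaction by edgeR, and none passed the adjusted threshold. Between HSCs (higher) and ECs (lower) it was 3.92 for Acta2, 1.72 for Tagln, 2.46 for Myh11, 1.86 for Myl9 and 2.20 for Des, with adjusted p of 0.678 or more. For Rgs5, lower in HSCs and higher in Kupffer cells, it was -1.93 (edgeR adjusted p 0.348).

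Between ECs (lower) and Kupffer cells (higher) it was -2.28 for Tagln, -2.92 for Myh11, -1.69 for Myl9, -1.66 for Mylk and -2.40 for Rgs5, with adjusted p from 0.0522 to 0.356. Between ECs (lower) and hepatocytes (higher) it was -2.71 for Acta2 and -1.44 for Myl9, with adjusted p of 0.487 and 0.574. For Rgs5, higher in Kupffer cells and lower in hepatocytes, it was 2.34 (edgeR adjusted p 0.495).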

How the results depend on the processing

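No paired analysis was possible because the groups compared share no replicate numbers. With 2 libraries a group the number of genes called depended on the tool and filter. For the KO label in HSCs it was 0 by edgeR, 406 by DESeq2, 663 with no filter on low counts and 178 with all 16 libraries in one fit, and of the 10 genes 0, 4 by DESeq2 and 5 with no filter. In ECs it was 305, against 983 by DESeq2, 190 with library totals alone, 1259 with no filter, 489 with at least 10 counts in every library and 0 without hepatocyte-enriched genes, and of the members 0, 3 by DESeq2, 4 with no filter and 1 with at least 10 counts. Leaving out 1 EC library gave 3 (without KO 46) to 688 (without WT 34) genes, 58 without KO 6, and 0 to 2 members. In Kupffer cells DESeq2 called 72 and no filter 159 genes, with 1 member, Acta2, and leaving out libraries 0 to 12 (12 without KO 43). In hepatocytes these were 27, 227 and 0 to 55 (55 without KO 25, 3 without KO 41 and 1 without WT 29).

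HSCs against ECs gave 4481 genes, 2722 with at least 10 counts, 1985 in WT and 2438 in KO groups alone. Against Kupffer cells there were 7389, 4390 with at least 10 counts and 3784 in WT groups alone, and against hepatocytes 10052 and 5970 with at least 10 counts. That filter left 4 members called in each, since members under 10 counts in a library drop out. Library totals alone moved the median of all genes from -0.02 to -0.27 against ECs and from 0.60 to 1.67 against hepatocytes, and the share of higher among called genes from 49.1% to 35.4% and from 58.3% to 80.6%. For the interactions, between HSCs and ECs 6 genes were called, 94 by DESeq2, 0 with library totals alone and 0 to 11 with a library left out. Between HSCs and Kupffer cells these were 102, 776, 48 and 8 to 356, and between HSCs and hepatocytes 13, 353, 0 and 0 to 106.

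Signs turned for values near 0 or at few counts, and for Tpm2, at 36 to 79 counts in ECs and 26 to 120 in Kupffer cells. In Kupffer cells Tpm2 had 7.91 and 1.76 CPM in KO libraries 27 and 43, beside 4.02 and 1.83 in WT libraries 31 and 39. Mylk in HSCs (0.00) was -0.000162 by DESeq2, -0.000158 with RLE size factors, -0.00981 with no filter, -0.00294 with at least 10 counts, -0.0108 in the fit of 16 libraries, -0.0391 without hepatocyte-enriched genes and -0.10 to 0.10 with a library left out. With a library left out Cspg4 in HSCs ran from -0.11 to 0.71, Cnn1 in ECs from -1.31 to 0.99, Tpm2 from -0.88 to 0.0248 in ECs and from -0.79 to 1.43 in Kupffer cells, and Mylk in hepatocytes from -0.18 to 0.12. Cnn1 in HSCs against ECs was 0.32 in KO groups alone, against hepatocytes -0.0606 in WT groups alone, and against Kupffer cells 0.00617 with library totals alone, 1.06 in WT groups alone and -0.70 to 1.97 with a library left out. The cause of these changes was not tested. Depth limits Cnn1 and Cspg4 everywhere and most members in hepatocytes.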
